A study of Mus musculus with 24 samples.

Results

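The transcripts described here encode 9 enzymes of pyruvate oxidation in the mitochondrial matrix: 3 subunits of the pyruvate dehydrogenase complex (Pdha1, Pdhb and Dlat) and 6 enzymes or subunits of the citric acid cycle (Cs, Idh3a, Ogdh, Sucla2, Fh1 and Mdh2). They were chosen by gene symbol from a table of 23235 genes, and all 9 were found. The study sequenced RNA of mouse oocytes and zygotes of 3 genotypes: wild type (WT), Cnot6l-/-, and one given in the labels as Btg4-/-. Each was sampled at 4 stages, which makes 12 groups of 2 libraries. All mice were C57BL/6 of postnatal day 21. In each genotype, oocytes at the germinal vesicle stage (GV), arrested in meiotic prophase, were taken 48 h after pregnant mare serum gonadotropin (PMSG). Oocytes in the first meiotic division (MI) were taken after 8 h of culture, eggs in the second (MII) after 16 h, and zygotes 24 h after human chorionic gonadotropin (hCG). The extraction notes state 100 oocytes per library, while the description of the series states 2. Nothing in the labels says that the 2 libraries of a group came from separate animals, so a p-value here reflects only how far these libraries differ, which may be technical. Nor do the labels describe either mutant allele. The culture notes mention the ERK1/2 inhibitor U0126 in some experiments, and no library is labelled as treated with it.

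The pyruvate dehydrogenase complex converts pyruvate to acetyl-CoA, and the citric acid cycle oxidizes acetyl-CoA to carbon dioxide and passes the electrons to the respiratory chain. Mouse oocytes take up pyruvate, partly supplied by the cumulus cells around them, as their main fuel, and use glucose poorly. Fully grown oocytes are largely silent in transcription and mature on mRNA stored during growth, much of which is cleared before the embryo transcribes its own genes. CNOT6L is one of the enzymes with which CCR4-NOT shortens poly(A) tails, and BTG4 is an adaptor for that complex. The comparisons ask which of the 9 transcripts fall during maturation and whether they fall less in the mutant groups.

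Values are FPKM as deposited, a unit of fragments per kilobase of transcript that is usually scaled by library size, and read depth is unknown. Summed over all genes, FPKM ranged from 422039 to 545784 in the GV libraries and from 49930 to 180847 in the zygote libraries. The deposited values thus do not share a fixed total. The sources used here do not state how the authors scaled one library against another. Every change is therefore given as deposited and again after median-ratio scaling, in which the 3677 genes above 1 FPKM in every library serve as the reference, and scaled changes are relative to those genes. From GV to MII in WT the median log2 change of all genes tested was -1.37 as deposited and -0.37 after scaling. Less RNA per oocyte and fewer oocytes in a library cannot be told apart. Of the 5 oocyte markers (Gdf9, Bmp15, Zp3, Ddx4 and Nlrp5) all were at or above 1 FPKM in every group. Their summed FPKM also went down with stage, from between 4873 and 5099 at GV to between 239 and 263 in zygotes in WT. Cnot6l was lower in Cnot6l-/- than in WT at GV, 5.92 and 4.30 FPKM against 73.9 and 24.1. Btg4 was close to its WT level in the GV libraries labelled Btg4-/- (1641 and 2515 FPKM against 2490 and 2120), so its transcript does not check that label.

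The last 100 bases of the annotated 3′ UTR were read for each gene, because the poly(A) tail that CCR4-NOT shortens begins at this end. A cytoplasmic polyadenylation element (CPE), the site through which tails of stored oocyte mRNA can be lengthened, was searched as TTTTAT or TTTTAAT. It was found in 2 of the 9 genes, Cs and Fh1, and in 20.4% of the 9476 tested genes with such a window. The poly(A) signal AATAAA or its variant ATTAAA was found in 7 of the 9 (all but Ogdh and Mdh2) and in 80.2% of genes. No TGTANATA, the Pumilio site (5.3% of genes), was present, and the AU-rich heptamer TATTTAT (4.5%) was present only in Ogdh among the 9. Searches used the sense strand alone, and no base was shared by matches of different motifs in a gene. The sites below come from the NCBIM37 (mm9) genome and the gencode vM1 annotation and are written 5′ to 3′ on the transcribed strand, with the motif in capitals: the CPE of Cs and Fh1, the poly(A) signal of Pdhb, Idh3a and Pdha1, which had no CPE, and the AU-rich heptamer of Ogdh.
Cs: taaaaataataaatgtTTTTATtaacaatg
Fh1: gcaaaataaagtttaTTTTATaaaagaaaa
Pdhb: gttttgataaggAATAAAggggattcccac
Idh3a: tgggttcacagtAATAAAgaacttaagaac
Pdha1: aaaaggaaacgaATTAAActtgtttgattc
Ogdh: cacacctgattTATTTATtttggttaaaaa
These sites lie at chr10:127799506-127799535 (plus strand) in Cs, chr1:177530505-177530534 (minus) in Fh1 and chr14:8998513-8998542 (minus) in Pdhb. They lie at chr9:54452437-54452466 (plus) in Idh3a, chrX:156560152-156560181 (minus) in Pdha1 and chr11:6256540-6256569 (plus) in Ogdh. The annotated 3′ ends of Fh1 and Ogdh lie 1004 and 2454 bases from the ends in the deposited table, so their windows may not be the ends used in oocytes. Mdh2 had the shortest 3′ UTR of the 9, 183 bases against a median of 791 over all genes, and neither poly(A) signal in its window. A match of letters is a description and shows no use of a site.

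In WT oocytes at GV all 9 transcripts were abundant, each at or above percentile 83.1 of all genes listed. Mdh2, the malate dehydrogenase that regenerates oxaloacetate, was the highest at 122 ± 20.5 FPKM (SD, n = 2). Fh1 (fumarate hydratase) followed at 75.8 ± 9.21, Sucla2 (the ADP-forming subunit of succinate-CoA ligase) at 73.1 ± 23.5, Pdhb at 61.9 ± 11.7, Idh3a at 57.0 ± 11.4 and Cs at 43.1 ± 13.7. Pdha1 at 19.0 ± 4.86, Dlat at 13.9 ± 5.21 and Ogdh at 12.4 ± 2.67 were the lowest. Both Mdh2 libraries were above every library of the other 8, and both libraries of each of the lowest 3 were below every library of the other 6. Within the middle 5 and within the lowest 3, neighbouring genes overlapped. Per length, the transcript of the E1 beta subunit thus stood above that of its partner E1 alpha, 3.13 and 3.45 times in the 2 libraries. By MII the order in WT had changed: Pdhb was highest, and Mdh2 was lowest beside Pdha1, which was already among the lowest 3 at GV.

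Of the 3 pyruvate dehydrogenase genes among the 9, Pdha1 fell farthest in WT. Pdha1 (chrX:156560151-156576268, minus strand) encodes the E1 alpha subunit, whose phosphorylation switches the complex off. Its WT libraries held 22.5 and 15.6 FPKM at GV, 3.20 and 2.81 at MI, 0.90 and 0.60 at MII, and in zygotes 2.47 and 1.34. No library of MI or later reached a GV library, and the MII libraries were the lowest of all. The log2 change from GV to MII was -3.50 ± 0.39 (SE; limma, adjusted p = 3.3e-07), and -2.10 after scaling (adjusted p = 3.2e-06). Reads from Pdha2, a testis-expressed intronless copy of Pdha1, can be confused with it; Pdha2 was listed at 2.12 and 3.22 FPKM in WT at GV and 1.16 and 0.53 at MII.

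Pdhb, the E1 beta subunit (chr14:8998505-9005506, minus strand), held 70.2 and 53.7 FPKM at GV, 21.3 and 17.2 at MI, 18.8 and 13.5 at MII, and in zygotes 6.89 and 5.89. Most of its difference lay between GV and MI, and the MI and MII libraries overlapped. It fell by 1.88 ± 0.30 on the log2 scale from GV to MII (adjusted p = 2.4e-05), but after scaling its change was -0.01 (adjusted p = 0.98), so it was level with the genes used for scaling. Dlat (chr9:50442738-50467885, minus strand), the E2 core that transfers the acetyl group to coenzyme A, went from 17.6 and 10.2 FPKM at GV to 5.41 and 4.17 at MI, 2.12 and 1.39 at MII, and in zygotes 2.70 and 1.18. It fell by 2.40 ± 0.42 from GV to MII (adjusted p = 6.1e-05) and by 0.84 after scaling (adjusted p = 0.019).

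Of the 6 citric acid cycle genes among the 9, Mdh2 and Fh1 fell most from GV to MII in WT and Cs and Ogdh least. Mdh2 (chr5:136254519-136266256, plus strand) held 107 and 136 FPKM at GV, 14.0 and 10.6 at MI, 0.89 and 0.55 at MII, and in zygotes 0.69 and 1.30. It thus went from the most abundant of the 9 to 0.591% of its GV mean at MII, with no overlap between GV, MI and MII. Its log2 change from GV to MII was -6.15 ± 0.24 (adjusted p = 6.2e-12) and -4.71 after scaling (adjusted p = 1e-08). Fh1 (chr1:177531509-177555766, minus strand) held 69.3 and 82.3 FPKM at GV, 6.97 and 7.20 at MI, 3.26 and 2.99 at MII, and in zygotes 4.0 and 6.05. Most of the Fh1 difference was present by MI, and its change from GV to MII was -4.21 ± 0.26 (adjusted p = 2.4e-10), or -2.47 after scaling (adjusted p = 1.1e-05). Mdh2 and Fh1 have processed pseudogenes, and reads shared with these make their values less certain.

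Sucla2 and Idh3a fell by similar amounts from GV to MII but at different steps. Sucla2 (chr14:73952593-73995949, plus strand) went from 89.8 and 56.5 FPKM at GV to 7.17 and 6.72 at MI, 10.3 and 4.39 at MII, and in zygotes 7.83 and 4.55. All of its fall was between GV and MI: the log2 change there was -3.18 ± 0.49 (adjusted p = 2.7e-05), against -0.03 ± 0.49 from MI to MII (adjusted p = 0.99). Idh3a (chr9:54434318-54452469, plus strand), the catalytic subunit of NAD-dependent isocitrate dehydrogenase, held 65.0 and 48.9 FPKM at GV, 24.9 and 21.3 at MI, 6.54 and 4.44 at MII, and in zygotes 4.59 and 2.72. Its larger step was the later one, -1.91 ± 0.38 from MI to MII (adjusted p = 0.00093) against -1.26 ± 0.38 from GV to MI (adjusted p = 0.0078). After scaling, the Idh3a change from GV to MI was -0.03 (adjusted p = 0.94) and that from MI to MII -1.34 (adjusted p = 0.00041).

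Cs, the citrate synthase that brings acetyl-CoA into the cycle (chr10:127774888-127799535, plus strand), held 52.8 and 33.4 FPKM at GV, 25.1 and 22.2 at MI, 12.4 and 11.2 at MII, and in zygotes 16.7 and 11.7. Ogdh, the E1 subunit of the 2-oxoglutarate dehydrogenase complex (chr11:6192561-6259097, plus strand), held 14.3 and 10.5 at GV, 21.0 and 15.8 at MI, 4.96 and 5.01 at MII, and in zygotes 6.72 and 5.32. Ogdh was the only one of the 9 with a higher mean at MI than at GV in WT, without overlap of the libraries. That difference of 0.54 ± 0.30 did not pass as deposited (adjusted p = 0.12), and after scaling Ogdh was higher at MI by 1.69 (adjusted p = 0.00026). From GV to MII both fell as deposited, Cs by 1.75 ± 0.30 (adjusted p = 4.7e-05) and Ogdh by 1.15 ± 0.30 (adjusted p = 0.0021). After scaling both signs turned, to 0.10 for Cs and 0.57 for Ogdh, and neither passed (adjusted p = 0.66 and 0.11). Csl, a close copy of Cs, was listed at 0.06 FPKM or less in WT at GV and MII.

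**Figure D1:**
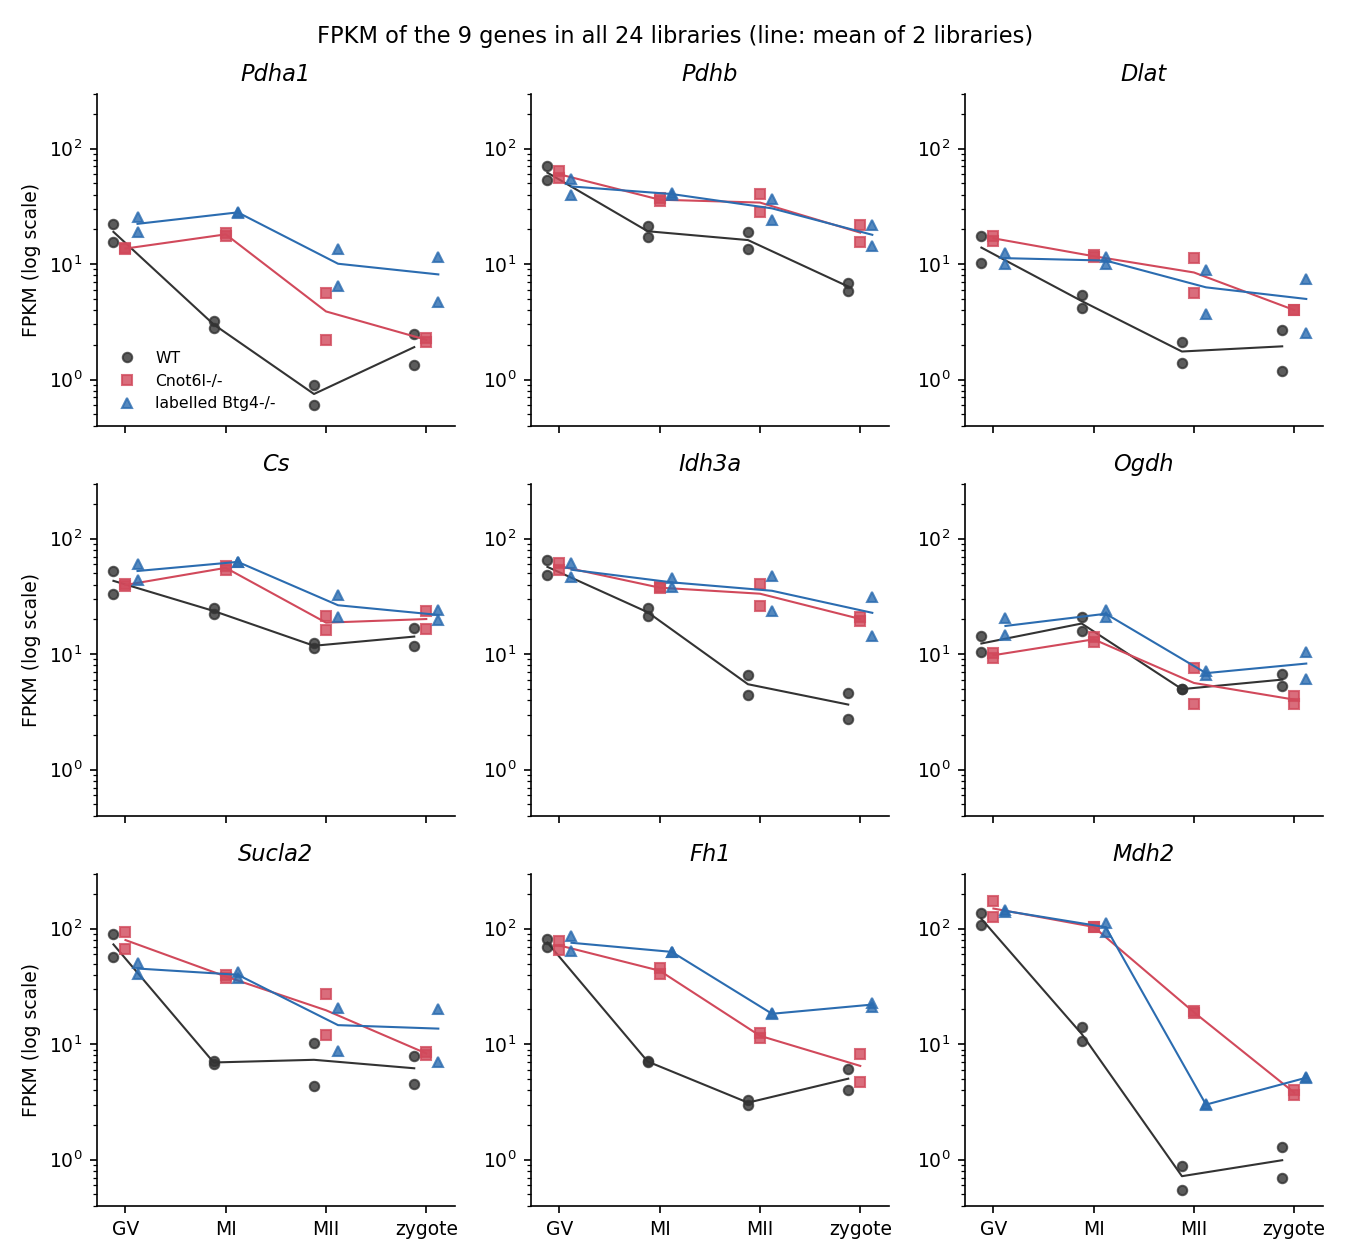
FPKM of each of the 9 genes in all 24 libraries (vertical axis, log scale) by stage (horizontal axis); points are libraries and lines join the means of 2 libraries. The WT lines (grey) drop between GV and MII in all 9 panels, most in Mdh2 (0.591% of its GV mean remained at MII), while the MI points of both mutant groups (red and blue) lie above WT in every panel but that of Ogdh.

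Counted over the 9, 8 were lower at MI than at GV in WT (all but Ogdh), where 65.1% of all genes tested were called lower. After scaling 4 were lower there (Pdha1, Sucla2, Fh1 and Mdh2; 30.5% of genes) and Ogdh higher (15.2%). From MI to MII 6 were lower (Pdha1, Cs, Idh3a, Ogdh, Fh1 and Mdh2), against 32.6% of genes, and 4 after scaling (Pdha1, Idh3a, Ogdh and Mdh2), against 25.1%. From GV to MII all 9 were lower, against 83.4% of genes, with a median log2 change of -3.16 over the 9 and -1.37 over all genes. After scaling 6 of the 9 were lower, against 43.2% of genes, with medians of -1.37 and -0.37. The count from GV to MI was 5 without WT GV replicate 1 or without 1 of the WT MI libraries, and that from MI to MII was 3 without WT MII replicate 2. From MII to zygote only Pdhb passed, lower by 1.20 ± 0.30 (adjusted p = 0.031), where 3.22% of genes were called lower. That call was lost when any 1 of the 4 libraries was left out and when only these 4 were fitted. After scaling the same step had 3 genes higher (Pdha1, Cs and Fh1) and Pdhb lower, with 15.0% of genes called higher and 4.86% lower.

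At GV no difference of the 9 transcripts from WT passed, although some libraries did not overlap those of WT. This held for Pdha1 and Ogdh in Cnot6l-/-, both lower. In the group labelled Btg4-/- it held for Sucla2, which was lower, and for Ogdh and Mdh2, which were higher. No gene of the 9 passed in Cnot6l-/- (6.06% of genes called higher and 3.02% lower) or in the group labelled Btg4-/- (6.10% and 1.33%), and 0 of the 9 had an unadjusted p under 0.05 in either limma test. The largest differences were -0.43 ± 0.39 for Pdha1 in Cnot6l-/- and -0.65 ± 0.49 for Sucla2 in the group labelled Btg4-/-. In summed FPKM the 9 came to 478 ± 43.3 in WT, 499 ± 7.8 for Cnot6l-/- and 468 ± 38.1 for the group labelled Btg4-/- (SD, n = 2).

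At MI, Mdh2, Fh1, Sucla2 and Pdha1 stood farthest above WT in both mutant groups. Mdh2 held 104 and 103 FPKM in Cnot6l-/- and 93.5 and 113 in the group labelled Btg4-/-, against 14.0 and 10.6 in WT. Fh1 held 45.7 and 40.9 and then 63.3 and 62.8, against 6.97 and 7.20. Sucla2 held 39.5 and 37.7 and then 37.4 and 42.5, against 7.17 and 6.72. In all 3 genes every mutant library lay above both WT libraries. Pdha1 held 17.5 and 18.7 in Cnot6l-/- and 27.7 and 28.4 in the group labelled Btg4-/-, against 3.20 and 2.81 in WT. The MI libraries of Pdha1 in both mutant groups thus lay above the GV libraries of their own genotype, though neither change from GV passed (adjusted p = 0.49 and 0.79).

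Both mutant groups are compared with the same 2 WT libraries, so the 2 comparisons are not independent. The log2 difference from WT at MI in Cnot6l-/- was 2.99 ± 0.24 for Mdh2 (limma, adjusted p = 3e-08), 2.45 ± 0.26 for Fh1 (5e-07), 2.32 ± 0.49 for Sucla2 (0.00058) and 2.25 ± 0.39 for Pdha1 (8.3e-05). In libraries labelled Btg4-/- it was 2.98 ± 0.24 for Mdh2 (2.5e-08), 2.99 ± 0.26 for Fh1 (5e-08), 2.36 ± 0.49 for Sucla2 (0.00043) and 2.86 ± 0.39 for Pdha1 (6.2e-06). These 4 genes passed in both comparisons after scaling too, at 1.42 to 2.07 in Cnot6l-/- and 1.20 to 1.81 in the group labelled Btg4-/-. Pdhb, Dlat and Cs were also higher as deposited, by 0.88 to 1.21 and by 1.02 to 1.38, but did not pass after scaling, where Pdhb had the opposite sign in both and Dlat in the group labelled Btg4-/-. Idh3a did not pass in either, and its sign turned after scaling in both. Ogdh differed by -0.42 ± 0.30 and 0.28 ± 0.30, and after scaling it was lower than in WT in both, by -1.29 (adjusted p = 0.0022) and -0.87 (adjusted p = 0.027). In all, 7 of the 9 were higher in Cnot6l-/-, where 60.3% of genes were, and 7 in the group labelled Btg4-/-, where 68.7% were. After scaling each comparison had 4 higher and 1 lower, against 35.8% and 11.0% of genes in Cnot6l-/- and 32.5% and 9.82% in the other. The medians over the 9 were 1.21 and 1.38, against 0.87 and 0.99 over all genes.

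Within the mutant groups no gene of the 9 passed from GV to MI as deposited. In Cnot6l-/- 2 of the 9 had an unadjusted p under 0.05 in limma, with 8.37% of all genes called higher and 15.0% lower. After scaling Cs was higher there (0.71, adjusted p = 0.017), as were 11.9% of genes. With only the 4 libraries compared in the fit 5 of the 9 passed in Cnot6l-/-: Pdhb, Idh3a, Sucla2 and Fh1 lower, and Cs higher. With no filter on low values 1 did (Fh1). The shares of all genes called in those 2 fits are not given here, so neither count can be set against them. In the group labelled Btg4-/- 0 of the 9 passed as deposited, with 0.404% of genes called higher and 1.26% lower. The summed FPKM of the 9 was 71.9% of the GV sum for Cnot6l-/- and 88.2% for the group labelled Btg4-/- at MI, against 24.8% in WT. The same percentages over all genes were 62.5, 78.0 and 32.0. From GV to MII 7 of the 9 were lower in Cnot6l-/- (all but Dlat and Idh3a), where 59.9% of genes were, and 6 in the group labelled Btg4-/- (all but Pdhb, Dlat and Idh3a), where 75.3% were. After scaling, 4 were lower in the first (Pdha1, Sucla2, Fh1 and Mdh2; 23.4% of genes), and the signs of Pdhb, Idh3a and Ogdh turned. In the other, Mdh2 was lower (29.7% of genes) and Pdhb higher (1.63%), and the signs of Pdha1, Pdhb, Dlat, Cs and Idh3a turned. The count in the group labelled Btg4-/- was 3 without its MII replicate 2.

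At MII, Idh3a and Mdh2 stood farthest above WT in Cnot6l-/-, and Pdha1, Idh3a and Fh1 in the group labelled Btg4-/-. Idh3a held 40.7 and 26.0 FPKM in Cnot6l-/- and 47.2 and 23.6 in the group labelled Btg4-/-, against 6.54 and 4.44 in WT, so that every mutant library was above both WT libraries. The difference was 2.39 ± 0.38 (limma, adjusted p = 7.2e-05) and 2.43 ± 0.38 (adjusted p = 0.00013), and 1.67 and 1.8 after scaling, which both passed. Pdha1 held 5.57 and 2.21 in Cnot6l-/- and 13.6 and 6.52 in the group labelled Btg4-/-, against 0.90 and 0.60. Its difference was 1.40 ± 0.39 (adjusted p = 0.0074) and 2.59 ± 0.39 (adjusted p = 9.3e-05). Fh1 held 12.5 and 11.2 and then 18.1 and 18.6, against 3.26 and 2.99, and was higher by 1.64 ± 0.26 (adjusted p = 7.7e-05) and 2.23 ± 0.26 (adjusted p = 8.1e-06). Mdh2 was higher by 3.54 ± 0.24 in Cnot6l-/- (adjusted p = 2.5e-08) and by 1.23 ± 0.24 in the group labelled Btg4-/- (adjusted p = 0.001). Pdha1, Fh1 and Mdh2 also passed in both after scaling. Within each mutant group the 2 MII libraries of Pdha1, Idh3a, Dlat and Sucla2 differed more than those of Fh1 and Mdh2.

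In all, 7 of the 9 were higher than in WT at MII in Cnot6l-/- (all but Cs and Ogdh), where 44.3% of genes were. In the group labelled Btg4-/- 7 were higher (all but Ogdh and Sucla2), where 28.3% were. After scaling 5 were higher in each (Pdha1, Dlat, Idh3a, Fh1 and Mdh2), against 34.3% and 21.8% of genes. The count for Cnot6l-/- was 4 without WT MII replicate 2 and 3 without Cnot6l-/- MII replicate 1, and that for the group labelled Btg4-/- was 4 without WT MII replicate 2 or its own MII replicate 1, and 4 when only the libraries compared were fitted. Idh3a, Fh1 and Mdh2 passed in both comparisons with any library left out.

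**Figure D2:**
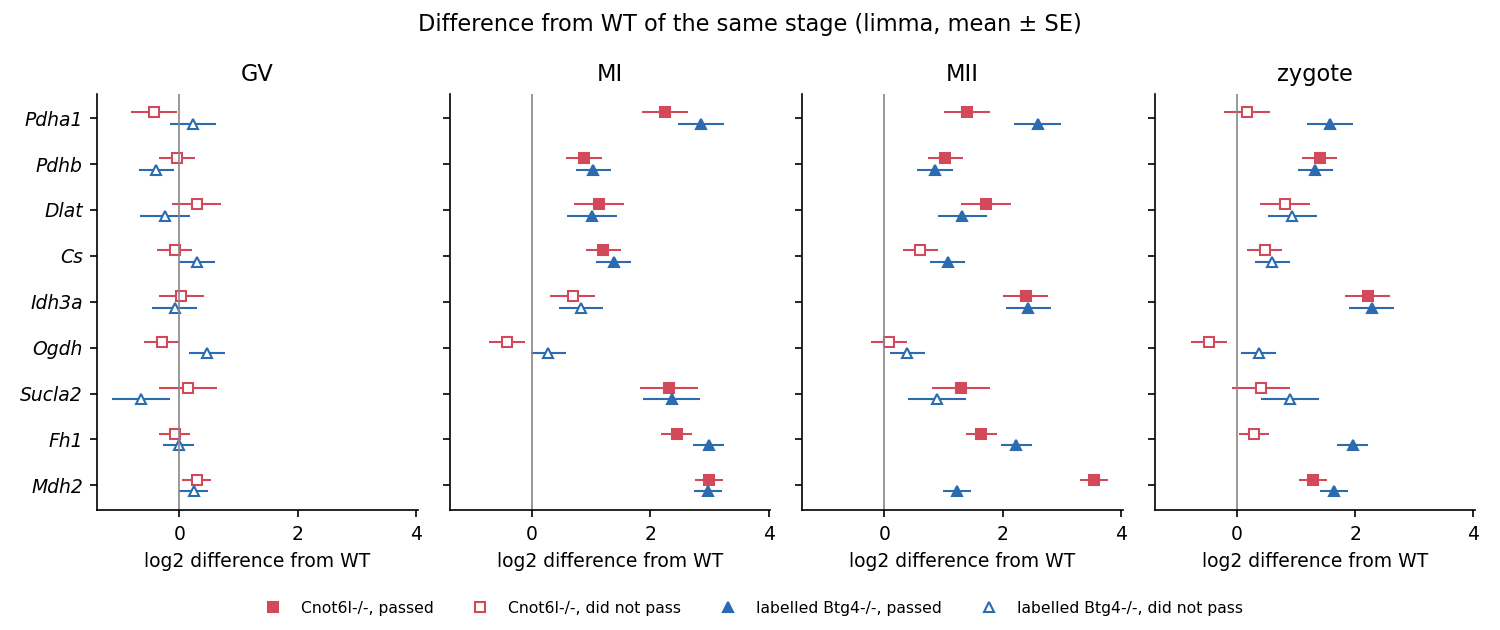
Log2 difference from WT of the same stage (horizontal axis, log2(FPKM + 1) scale, mean ± SE from limma) for each of the 9 genes in Cnot6l-/- (red squares) and the group labelled Btg4-/- (blue triangles); filled symbols passed at an adjusted p under 0.05. At GV no symbol is filled, at MI 7 are filled in each group, and at MII Mdh2 lies at 3.54 for Cnot6l-/- and 1.23 for the group labelled Btg4-/-.

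In zygotes 3 of the 9 were higher than in WT in Cnot6l-/- (Pdhb, Idh3a and Mdh2), where 8.00% of genes were, and 5 in the group labelled Btg4-/- (these and Pdha1 and Fh1), where 21.5% were. Idh3a held 19.4 and 20.9 FPKM and 31.4 and 14.2, against 4.59 and 2.72 in WT, and differed by 2.21 ± 0.38 (limma, adjusted p = 0.0014) and 2.28 ± 0.38 (adjusted p = 0.00035). Pdhb held 15.6 and 21.8 and then 21.6 and 14.2, against 6.89 and 5.89. Fh1 held 22.9 and 21.2 in the group labelled Btg4-/-, where it was higher than WT by 1.96 ± 0.26 (adjusted p = 4.7e-05), and 4.73 and 8.24 in Cnot6l-/-, which overlapped the 4.0 and 6.05 of WT. After scaling the same 3 were higher in Cnot6l-/- (8.00% of genes) and Ogdh lower (-1.12, adjusted p = 0.017; 7.91% of genes). In the group labelled Btg4-/- 4 were then higher, all but Pdhb (11.7% of genes). The count for the group labelled Btg4-/- was 3 without its zygote replicate 1. No gene of either zygote comparison passed when only the 4 libraries compared were fitted.

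The mutant groups differed from each other in Mdh2 at MII and in Pdha1 and Fh1 in zygotes. Mdh2 held 18.5 and 19.4 FPKM in Cnot6l-/- MII eggs and 3.06 and 2.95 in those labelled Btg4-/-, after similar MI values in the 2 groups. The difference was 2.31 ± 0.24 (limma, adjusted p = 8.7e-06), and 2.25 after scaling (adjusted p = 0.00025). It passed with any library left out, but not when only these 4 libraries were fitted. At this stage 11.0% of genes were called higher in Cnot6l-/- and 1.77% lower. Pdha1 differed by -1.19 ± 0.39 at MII and did not pass as deposited (adjusted p = 0.054). It was lower in Cnot6l-/- after scaling (-1.30, adjusted p = 0.002), where 4.27% of genes were. It passed as deposited without Cnot6l-/- MII replicate 1 or without replicate 2 of the group labelled Btg4-/-, which brought the count of the 9 called to 2. In zygotes 2 of the 9 were lower in Cnot6l-/- (12.8% of genes): Pdha1, at 2.13 and 2.29 against 11.6 and 4.71 FPKM, by -1.40 ± 0.39 (adjusted p = 0.022), and Fh1, at 4.73 and 8.24 against 22.9 and 21.2, by -1.66 ± 0.26 (adjusted p = 0.00037). Both passed after scaling too, at -1.30 (adjusted p = 0.0015) and -1.49 (adjusted p = 0.0039), where 17.0% of genes were lower. Neither passed when only the 4 zygote libraries were fitted. The zygote count was 1 without either Cnot6l-/- library or without replicate 1 of the group labelled Btg4-/-, where Pdha1 did not pass. At GV and at MI no gene of the 9 passed between the mutant groups, with 1 of 9 under an unadjusted p of 0.05 at each stage. All genes called there came to 5.85% higher and 12.4% lower at GV, and 3.59% and 6.46% at MI. With only the 4 MI libraries fitted, Pdha1, Ogdh and Fh1 passed, all lower in Cnot6l-/-. The percentages just given are not those of that fit.

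Ratios of transcripts within a library do not depend on how libraries are scaled, and 2 were chosen after the values were seen. Pdhb to Pdha1, the partners of the E1 enzyme, stood at 3.13 and 3.45 in WT at GV, 6.66 and 6.12 at MI, 20.9 and 22.5 at MII, and in zygotes 2.79 and 4.4. In Cnot6l-/- it was 4.77 and 4.02 at GV, 2.11 and 1.88 at MI, 7.19 and 12.7 at MII, and in zygotes 7.33 and 9.53. In the group labelled Btg4-/- it lay between 1.44 and 3.69 in all 8 libraries. The 3 genotypes did not overlap at MII, with WT highest, and they did not overlap at GV or MI either. At GV, Cnot6l-/- was highest and the group labelled Btg4-/- lowest, at 2.11 and 2.1. Mdh2 to Cs, adjacent steps of the cycle, went from 2.03 and 4.08 in WT at GV to 0.0717 and 0.0490 at MII. At MII it was 0.863 and 1.20 in Cnot6l-/- and 0.0949 and 0.142 in the group labelled Btg4-/-. Cnot6l-/- eggs thus had Mdh2 and Cs transcripts at nearly equal FPKM, while both other groups had far less Mdh2 than Cs. In WT at MII, Pdha1 (0.90 and 0.60 FPKM) and Mdh2 (0.89 and 0.55) were below 1 FPKM, so these WT ratios are less certain.

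**Figure D3:**
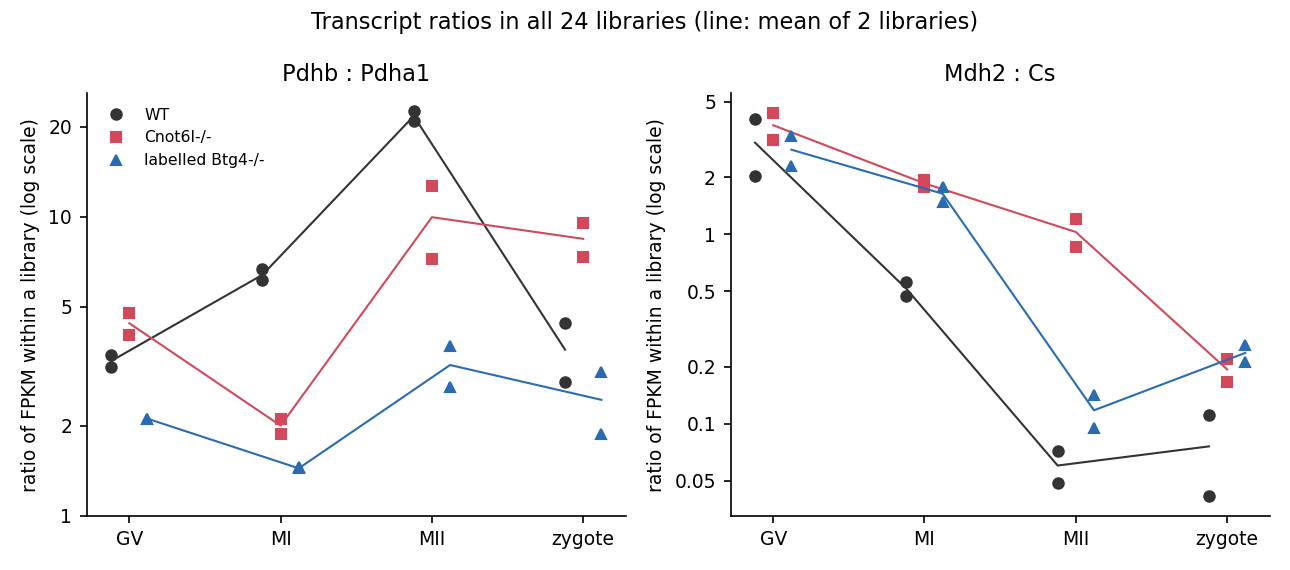
Ratio of FPKM within each library (vertical axis, log scale) by stage for Pdhb to Pdha1 (left) and Mdh2 to Cs (right), with points for libraries and lines for the mean of 2. At MII the WT points for Pdhb to Pdha1 (20.9 and 22.5) lie above both mutant groups, and the Cnot6l-/- points for Mdh2 to Cs (0.863 and 1.20) above both other groups.

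The rest of the pathway was read from a list of 35 genes, of which 29 passed the filter on low values. From GV to MII in WT, 27 of the 29 were lower (all but Pdk1 and Pdp1), against 83.4% of all genes tested, with medians of -2.71 and -1.37. Both other subunits of the pyruvate dehydrogenase complex were lower: Pdhx, which holds E3 to the core, by -3.32 and Dld, the E3 subunit shared with other dehydrogenases, by -4.48. All 10 other cycle subunits were lower, from Suclg2 (-0.82), the GDP-forming partner in succinate-CoA ligase, to Sdhd (-6.81), a membrane anchor of succinate dehydrogenase. Sdhd went from 191 and 172 FPKM at GV to 0.67 and 0.58 at MII. All 3 genes of pyruvate entry and carboxylation were lower, from Pcx (pyruvate carboxylase, -0.90) to Brp44, the older name of a mitochondrial pyruvate carrier subunit (-5.06). All 3 lipoate genes, which make and attach the cofactor of Dlat, were lower, from Lias (-1.34) to Lipt1 (-5.46). Of the 7 tested related enzymes outside the cycle all were lower, from Ogdhl (-0.49) to Me2 (-3.78). These changes are as deposited. After scaling Pdhx (-1.45), Dld (-2.67), Brp44 (-3.47), Lipt1 (-3.94) and Me2 (-2.16) were still lower, while Lias (-0.30) and Ogdhl (0.31) did not pass.

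The kinases and phosphatases that set the activity of the complex had the smallest median change of these groups of genes. The log2(FPKM + 1) scale understates changes of low genes, and its part in this small median was not tested. Of 4 tested, 2 were lower, with a median of -0.83, from Pdk1 (-0.30, adjusted p = 0.22) to Pdk3 (-1.63, adjusted p = 0.00066). Pdk3 fell by more than the median of all genes (-1.37) and held 34.0 and 29.1 FPKM at GV and 12.8 and 7.05 at MII. After scaling none of these 4 was lower and Pdk1 was higher (0.53, adjusted p = 0.019), while 16 of the 28 genes of the list still tested were lower, against 43.2% of all genes, and 2 higher. Pdk2, Pdk4 and Pdpr of this list were too low to be tested.

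Against WT the list followed the same stages. At MI 21 of the 29 were higher for Cnot6l-/- and 23 for the group labelled Btg4-/-, where 60.3% and 68.7% of all genes were. After scaling it was 16 and 12 of 28, against 35.8% and 32.5%. At MII 18 and 15 of 29 were higher, against 44.3% and 28.3%, and after scaling 15 and 12 of 28, against 34.3% and 21.8%. Sdhd at MII held 26.6 and 19.3 FPKM in Cnot6l-/- and 108 and 82.4 in the group labelled Btg4-/-, so it was lower in Cnot6l-/- than in the other group by -2.01 ± 0.33 (limma, adjusted p = 0.00065). Idh3g, a regulatory subunit of isocitrate dehydrogenase, differed in the opposite direction, at 6.55 and 5.74 against 1.10 and 0.61 (1.96 ± 0.30, adjusted p = 0.00033). All 3 lipoate genes were higher in Cnot6l-/- than in the group labelled Btg4-/- at MII, by 1.13 to 1.41 (11.0% of all genes). Lipt2 was already higher at GV by 1.66 ± 0.22 (limma, adjusted p = 5.6e-05) and at MI by 1.51 ± 0.22 (0.00014). Lias and Lipt1 did not pass at GV or MI as deposited, but after scaling Lias passed at MI (0.60, limma, adjusted p = 0.038). Idh3g was outside the naming rule and was chosen after its values were seen.

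**Figure D4:**
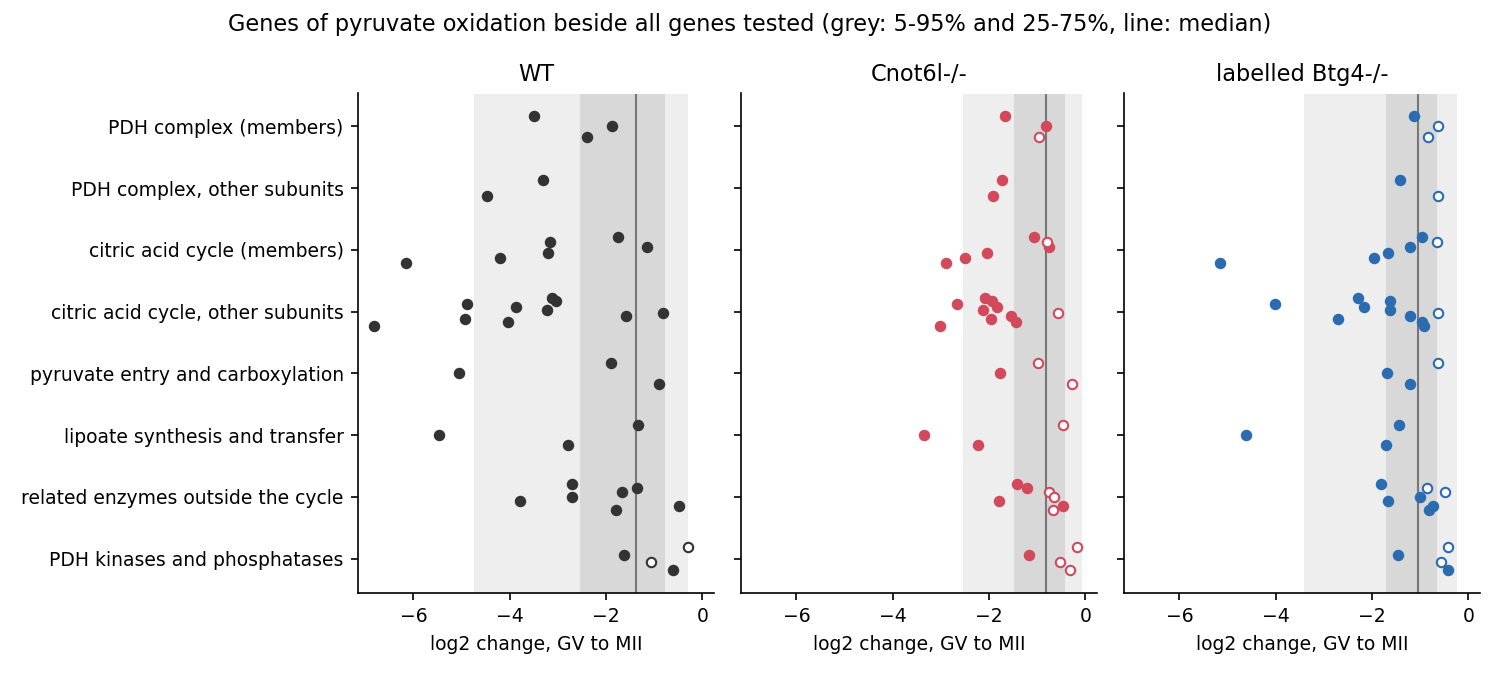
Log2 change from GV to MII (horizontal axis) in WT, Cnot6l-/- and the group labelled Btg4-/- for the 9 genes and the other tested genes of the pathway, by role (rows); filled points passed at an adjusted p under 0.05, and grey bands and the line give the 5 to 95% range, the 25 to 75% range and the median of all genes tested. In WT the kinases and phosphatases had a median of -0.83 on a scale that understates changes of low genes, and Pdk3 (-1.63) lies left of the line. Sdhd (-6.81) and Mdh2 (-6.15) lie at the far left.

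Over the means of the 12 groups the 9 transcripts followed a shared course, with Ogdh the least alike. Pearson's r of each gene with the mean of the other 8 was 0.67 for Ogdh and between 0.89 and 0.96 for the rest. Between pairs it ranged from 0.50 (Pdhb and Ogdh) to 0.97 (Pdha1 and Fh1), with a median of 0.86. The points share the libraries and their falling totals. Among 4817 genes reaching 10 FPKM in some group, those whose course was most like that of the 9 were Psmd8 (r = 0.997), Phb2 (0.995), Wdr53 (0.994), Strap (0.993) and Fdx1l (0.993). Psmd8, for example, had 160 FPKM in WT at GV and 4.0 at MII, and 34.9 and 26.4 at MII in Cnot6l-/- and the group labelled Btg4-/-.

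Markers of other cells were read beside these results. The 10 cumulus and granulosa markers summed to between 19.1 and 25.7 FPKM in WT at GV, 25.7 and 27.8 in Cnot6l-/- and 16.1 and 19.7 in the group labelled Btg4-/-. At MII their sums were 5.00 to 5.32, 8.01 to 13.1 and 3.07 to 5.76. At GV 4 of these 10 (Inha, Cyp19a1, Nr5a2 and Gja1) were at or above 1 FPKM in each genotype, while Ptx3 was listed at 0 in 11 of the 12 groups. The 9 sperm markers, among them Pdha2, summed to 35.7 to 36.6 in WT at GV and 1.37 to 2.71 at MII, and for Cnot6l-/- to 67.1 to 85.8 and 18.3 to 19.2. They came to 37.8 to 60.9 and 3.74 to 7.70 in the group labelled Btg4-/-. In zygotes the sums were 1.40 to 2.32 in WT, 1.64 to 2.84 in Cnot6l-/- and 3.03 to 4.44 in the group labelled Btg4-/-. From MII to zygote in WT, Prm2 did not pass as deposited (0.76, limma, adjusted p = 0.34) and was higher after scaling (1.46, adjusted p = 0.027). Of these sperm markers 4 were at or above 1 FPKM in WT at GV and 5 in each mutant group. Those 4 in WT were Prm2, Oaz3, Ldhc and Pdha2, while Tnp1 was listed at 0 in all 12 groups. In Cnot6l-/- at MII, Ldhc, Prm2, Oaz3 and Odf1 were called higher than in WT, by 3.21, 1.52, 0.81 and 0.63. Pdha2 was not (0.10). Both marker sums were lower at MII than at GV in every genotype, as the 9 transcripts were in WT. The part of other cells in the results was not tested.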

How the data were processed

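Libraries were made with Smart-Seq2 and Tn5 transposase, per the labels' protocols. The authors used CASAVA 1.8, TopHat2 2.0.11, Bowtie2 2.1.0, Cufflinks 2.2.1 and mm9, per the submitters' processing notes, which give no roles. The authors deposited FPKM with 2 decimals for 23235 genes. Only the joint table of the 24 libraries was read, since many lines of the single tables hold the values of all libraries. MI columns carry other numbers than their titles and were assigned to groups only.

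A gene was tested when its mean reached 1 FPKM in some group (10884 genes, or 9823 after median-ratio scaling), which kept all 9 genes described. log2(FPKM + 1), which understates changes of low genes, was modelled by limma 3.58.1 under R 4.3.3 (lmFit with 1 mean per group, eBayes with a trend, 12 residual degrees of freedom), tested on simulated data first. Tests were two-sided, p-values were adjusted over all genes by Benjamini-Hochberg, and called means an adjusted p under 0.05. Depth is unknown, and the only measure of error is how far libraries of a group differ.

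The genes, lists, comparisons and alternatives were chosen with earlier results of these data known. Of each other list the genes with the highest and lowest change from GV to MII in WT are named, and the 5 genes most alike by Pearson's r over groups. Alternatives were a pseudocount of 0.1 FPKM, no filter, median-ratio scaling, only the libraries compared, the library number as a block, and each library left out. 3′ UTRs came from gencode vM1. Tables and figures were made in Python 3.11.15 (pandas 2.3.3, numpy 2.4.6, matplotlib 3.10.9). A result on 1 other gene of the pathway is not reported here.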

Additional observations from a re-analysis of the deposited data

Results flagged for a closer look

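The change from GV to MII differed between genotypes for 4 of the 9 genes by the interaction term in limma, which is the log2 change of the mutant group minus that of WT. In Cnot6l-/- the difference was 1.83 ± 0.55 for Pdha1 (adjusted p = 0.022), 2.36 ± 0.53 for Idh3a (0.0037), 1.72 ± 0.37 for Fh1 (0.0025) and 3.25 ± 0.34 for Mdh2 (9e-06), where 24.1% of genes were called higher. In the group labelled Btg4-/- it was 2.36 ± 0.55 for Pdha1 (0.0078), 2.51 ± 0.53 for Idh3a (0.0044) and 2.24 ± 0.37 for Fh1 (0.00062), where 13.3% of genes were called higher. All are smaller falls than in WT, whose libraries both comparisons share. Mdh2 in the group labelled Btg4-/- differed by 0.99 ± 0.34 and did not pass (adjusted p = 0.066). After scaling all but Fh1 in Cnot6l-/- (0.98, adjusted p = 0.19) passed, where 15.0% of genes were called higher for Cnot6l-/- and 12.4% for the group labelled Btg4-/-. With a library left out Pdha1 failed to pass in 4 of 8 fits for Cnot6l-/- and 1 of 8 for the group labelled Btg4-/-. Without MII replicate 2 of the group labelled Btg4-/- 5 of the 9 passed there.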

How the results depend on the processing

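All 9 genes were lower at MII than at GV in WT as deposited with any library left out, with a pseudocount of 0.1 FPKM, with no filter and with only the libraries compared; with median-ratio scaling 6 were. After scaling the count called, newly passed genes included, was 5 from GV to MI in WT (4 lower and Ogdh higher, against 8 lower), 4 from MII to zygote in WT (3 higher and 1 lower, against 1 lower), 1 from GV to MI (against 0) and 4 from GV to MII in Cnot6l-/-, 2 from GV to MII in the group labelled Btg4-/- (Mdh2 lower and Pdhb higher), and 2 between the mutant groups at MII. Among values called before or after it, scaling turned the sign of Cs in WT at MI (0.42) and MII (0.10) and of Ogdh at MII (0.57) against GV. It did so for Pdhb (0.20) and Ogdh (0.15) in Cnot6l-/- and for Pdha1 (0.02), Pdhb (0.58) and Cs (0.23) in the group labelled Btg4-/- from GV to MII. Against WT at MI it did so for Pdhb in Cnot6l-/- (-0.03), and for Pdhb (-0.14), Dlat (-0.04) and Ogdh (-0.87) in the group labelled Btg4-/-. Values called in neither also turned, among them Idh3a from GV to MII in both mutant groups (0.20 and 0.55). Of 198 values of single genes, scaling left 159 on the same side of the threshold and the pseudocount 195.

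With no filter, 1 gene passed from GV to MI in Cnot6l-/- and 1 between the mutant zygotes. With only the libraries compared, 5 passed from GV to MI in Cnot6l-/-, 4 between the group labelled Btg4-/- and WT at MII, and 3 between the mutant groups at MI. In that setting 0 passed from MII to zygote in WT and in either mutant group against WT in zygotes. Between the mutant groups 0 passed at MII and in zygotes. Fewer libraries then estimate the spread. The shares of all genes called in that setting or with no filter are not given here. Same-numbered libraries correlated in their deviations from -0.31 to 0.71 (median 0.44) over 36 pairs of groups, above 0.1 in 28. The labels tie the numbers to no animal or day and not every correlation was above 0.1, so the fit without a block was kept, although a shared source is not excluded. With the library number as a replicate block, which could not use the MI libraries, 2 passed between the mutant groups at MII (Mdh2 and Pdha1, adjusted p = 0.036, against 0.12 without the block or the MI libraries), and 130 of 135 values of single genes were unchanged in call while 5 newly passed. Without the MI libraries and without a block, a fit chosen after seeing the data, 0 passed from MII to zygote in WT and 1 between the mutant zygotes. The cause of these differences was not tested.

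Leaving out 1 library at a time, the lone library being assumed to vary like the others, gave 5 to 8 genes from GV to MI in WT, 3 to 4 from MI to MII, 9 to 9 from GV to MII and 0 to 0 from MII to zygote. From GV to MII it gave 5 to 8 in Cnot6l-/- and 3 to 9 in the group labelled Btg4-/-. Against WT it gave 5 to 7, 3 to 7 and 2 to 3 in Cnot6l-/- at MI, MII and zygote, and 5 to 6, 4 to 7 and 3 to 7 in the group labelled Btg4-/-. Between the mutant groups it gave 1 to 2 at MII and 1 to 3 in zygotes, and for the difference in change from GV to MII 3 to 5 in Cnot6l-/- and 2 to 5 in the group labelled Btg4-/-. All comparisons with 0 genes called stayed at 0 to 0. In every comparison the number of all genes called also fell below that of the full fit in some of these fits. Lower counts there are thus not particular to the 9, and shares of all genes are not given for these fits. With 2 libraries per group and no depth, differences under about 1 on the log2 scale were often not detectable.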

Other observations

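In WT the ratios of Idh3a to its partner subunits did not hold across stages. The transcript of Idh3a stood at 1.5 and 1.43 times that of Idh3g, a regulatory subunit of the same enzyme, in WT at GV, and at 14.9 and 18.5 times at MII. At MII this ratio was 6.22 and 4.54 in Cnot6l-/- and 42.9 and 38.7 in the group labelled Btg4-/-, so the 3 genotypes did not overlap. Against Idh3b, the other regulatory subunit, the MII ratios overlapped, at 12.3 and 14.3 in WT, 14.9 and 11.0 in Cnot6l-/- and 17.4 and 9.75 in the group labelled Btg4-/-. In Cnot6l-/- zygotes it was 64.6 and 99.7, against 9.87 and 7.78 in the group labelled Btg4-/-. Sucla2 to Suclg1, the partners of succinate-CoA ligase, stayed between 1.07 and 5.38 in all 24 libraries. Idh3g and Idh3b were below 1 FPKM in WT at MII and in WT zygotes. So were Idh3b in Cnot6l-/- zygotes and Idh3g in MII replicate 2 of the group labelled Btg4-/-. Ratios to them are uncertain, among them the overlapping MII ratios to Idh3b in WT. In WT zygotes the 2 libraries gave 41.7 and 5.04 for Idh3a to Idh3g, and 22.9 and 8.5 for Idh3a to Idh3b. All ratios of this paragraph were chosen after the values were seen and were not tested.

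Of the 29 other genes of the pathway that were tested, 1 was higher in Cnot6l-/- than in WT at GV, where 6.06% of all genes were: Lipt2, which encodes a lipoyl transferase (2.29 ± 0.22, limma, adjusted p = 1.3e-06). Pcx was higher at GV in the group labelled Btg4-/-, by 0.52 ± 0.13 (adjusted p = 0.021), and was too low to be tested after scaling.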
